A study of Oryza sativa with 12 samples.

Results

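The wound-induced protein cluster on rice chromosome 4 comprises 6 gene models whose identifier starts with LOC_Os04g54 and whose annotation holds the Pfam domain PF12609, named wound-induced protein. These were 6 of the 11 models with this domain among the 57501 gene models of the table. LOC_Os04g54240 and LOC_Os04g54300 were singled out because their counts in roots were lower in the overexpressing line, so the comparison of genotypes in roots chose the cluster and is given as a description without a test. Those 2 genes were proposed from genotype contrasts of these data, so no p-value is given for them in shoots either.

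PF12609 marks a family of small plant proteins that took its name from transcripts that accumulate after wounding. Wounding acts in plants largely through jasmonate, a lipid hormone made from linolenic acid, and brings on genes such as those of proteinase inhibitors. In Arabidopsis, transcripts of some members also rise when oxygen is short. What the proteins of the rice cluster do is not given by the annotation, which pairs 5 of the 6 with no protein name.

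Polyadenylated RNA of 21-day-old rice plants grown in hydroponics was sequenced in 4 groups of 3 libraries each. WT root and WT shoot came from wild-type Nipponbare (labelled NB), while the OX6 groups came from an overexpressor of Zaxinone Synthase (ZAS), the carotenoid cleavage dioxygenase that makes the growth regulator zaxinone. The treatment label names the genotype alone, all 12 titles share a letter P that no label explains, the promoter of the transgene is not given in the sources used here, and with 1 line the transgene cannot be told apart from any other change that line carries. The labels name no separate plants or cultures behind the 3 replicates of a group. The p-values therefore weigh a difference only against the spread among libraries, and that spread may be technical.

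Levels are CPM (counts per 1e+06, with library sizes scaled over all 12 libraries), and a level per length is CPM per kb of gene model. Libraries held 32269044 to 62910092 counts. ZAS is LOC_Os09g15240 by general knowledge, and the file names it only as a carotenoid cleavage dioxygenase. Its level was 2.54 to 2.90 CPM in roots of WT and 304 to 317 CPM in roots of OX6. In shoots it was 0.175 to 0.489 CPM in WT against 1676 to 1861 CPM in OX6, so every library was on the side of its genotype label. The 21 genes with the chlorophyll a/b binding domain summed to 41.1 to 89.7 CPM in roots, 113419 to 131069 CPM in shoots of WT and 92351 to 100264 CPM in shoots of OX6, so in shoots this marker moved with genotype, and its part in the shoot comparisons was not tested. The root silicon channel NIP2-1 had 2505 to 3344 CPM in roots and 8.51 to 17.4 CPM in shoots, so organ labels and markers matched. Where RNA of an organ differs, fewer cells that express a gene and less RNA per cell cannot be told apart.

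The 6 genes lie on chromosome 4 between positions 32295071 and 32337872 of the deposited annotation, whose genome build is not given in the sources used here. LOC_Os04g54210 (32295071 to 32295355) is on the plus strand, and the other 5 are on the minus strand. LOC_Os04g54230 (32297556 to 32298132) begins 2200 bases past it, and LOC_Os04g54240 (32301622 to 32302456) a further 3489 bases on. After a gap of 17187 bases follows LOC_Os04g54280 (32319644 to 32323748), and after another of 9586 bases LOC_Os04g54300 (32333335 to 32333993). LOC_Os04g54310 (32336347 to 32337872) ends the row, 2353 bases beyond. The models are 285, 577, 835, 2499, 659 and 645 bases long, in the same order.

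LOC_Os04g54280 differs from the rest in its annotation. Its closest named protein is a retrotransposon Gag-Pol polyprotein, and besides PF12609 it carries an integrase core domain and gag-type domains. The other 5 carry PF12609 alone. No other gene model overlaps any of the 6. The members are related in sequence by their shared domain, and how reads that match more than 1 of them were counted is not given in the sources used here, so the split of reads among them is uncertain.

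In roots, all 6 genes were lower in OX6 than in WT, by 2.17- to 8.48-fold, and in none did the 3 OX6 values overlap the 3 WT values. A fall without overlap was seen in 9.52% of the 26574 genes tested in roots, and by edgeR's quasi-likelihood test 2.83% changed at adjusted p under 0.05, of which the fallers made up 1.64% of all genes. Because this contrast chose the cluster, nothing is read from the comparison with those shares. The median log2 fold change of the 6 genes was −1.91, beside 0.0024 over all genes tested. LOC_Os04g54280 passed the filter on low counts through its WT root libraries alone, so its presence among the tested genes already required a difference.

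LOC_Os04g54240 was the most abundant member in roots by CPM. It held 1188, 1217 and 1568 counts in the WT root libraries, or 28.0, 28.5 and 36.5 CPM, and 306, 396 and 353 counts in the OX6 root libraries, or 7.65, 8.88 and 7.86 CPM. The highest OX6 value lay below a level of 9 CPM and the lowest WT value was above 28 CPM. Its log2 fold change was −1.93 (SE 0.111), a level 3.8-fold lower.

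LOC_Os04g54300 followed the same course. It had 957, 851 and 1126 counts in WT roots, or 22.6, 19.9 and 26.2 CPM, against 228, 311 and 257 counts in OX6 roots, or 5.70, 6.98 and 5.72 CPM. Its log2 fold change was −1.90 (SE 0.118), which differed from that of LOC_Os04g54240 by less than either SE.

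LOC_Os04g54310 had 482, 456 and 734 counts in WT roots, or 11.4, 10.7 and 17.1 CPM, and 193, 130 and 209 counts in OX6 roots, or 4.82, 2.92 and 4.65 CPM. The log2 fold change was −1.66 (SE 0.242). WT root replicate 3 was the highest of the WT roots for this gene and also for LOC_Os04g54230, LOC_Os04g54240, LOC_Os04g54280 and LOC_Os04g54300. Without that library the log2 fold change of LOC_Os04g54310 was −1.41, and the values of LOC_Os04g54240 and LOC_Os04g54300 were both −1.79.

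LOC_Os04g54210, the 1 member on the plus strand, showed the smallest difference in roots. It held 321, 444 and 434 counts in WT, or 7.57, 10.4 and 10.1 CPM, and 186, 201 and 169 counts in OX6, or 4.65, 4.51 and 3.76 CPM. The log2 fold change was −1.12 (SE 0.141), with a 95% interval of −1.40 to −0.84. The corresponding intervals of LOC_Os04g54240, −2.15 to −1.71, and LOC_Os04g54300, −2.13 to −1.67, lay wholly below it. Those 2 genes were singled out for their low OX6 root counts, which favours a larger fall, so nothing is read from this difference.

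The 2 least abundant members had the widest errors. LOC_Os04g54230 had 79, 84 and 85 counts in WT roots, the tightest WT values of the cluster, and 8, 20 and 22 in OX6 roots. Its levels were 1.86, 1.97 and 1.98 CPM in WT roots and 0.20, 0.449 and 0.49 CPM in OX6 roots. OX6 root replicate 1 was the low library there, and the log2 fold change of −2.32 (SE 0.315) was −2.03 without it. The retrotransposon-like LOC_Os04g54280 had 15, 14 and 24 counts in WT roots and 0, 3 and 3 in OX6 roots. Its summed counts, 53 in WT and 6 in OX6, gave an OX6 to WT ratio of 0.112 with an exact 95% interval of 0.0393 to 0.260 that covers counting error only, and the fitted log2 fold change was −3.08 (SE 0.705).

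**Figure D1:**
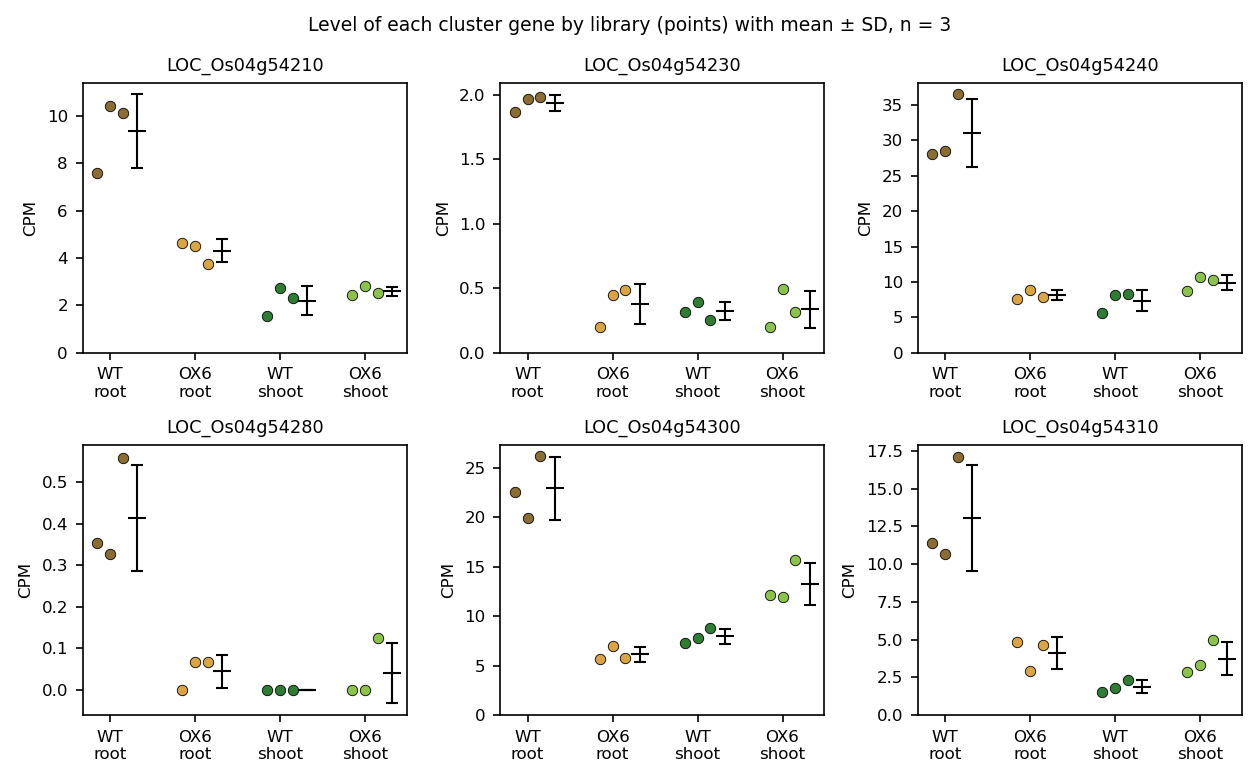
CPM (y axis, linear, 1 scale per panel) of each of the 6 cluster genes in the 12 libraries, by group on the x axis. Points are libraries and the bar beside them is the mean ± SD of 3. In every panel the 3 WT root libraries, which took part in choosing the cluster, lie above the other 9. The share of all genes with this pattern was not counted. In LOC_Os04g54300 the OX6 shoot libraries (11.9 to 15.7 CPM) lie above WT shoot (7.31 to 8.81 CPM).

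In shoots the cluster was not lower in OX6. Of the 6 genes, 3 had OX6 values wholly above the WT values, 3 overlapped and 0 were wholly below. Of the 26251 genes tested in shoots, 12.4% were wholly above and 11.6% wholly below. The 3 wholly above included LOC_Os04g54240 and LOC_Os04g54300, proposed from genotype contrasts of these data, so nothing is read from the comparison with those shares. The median log2 fold change of the 5 genes tested was 0.41, the value of LOC_Os04g54240, beside −0.0057 over all genes tested. Among the 3 for which a test is given, 0 passed adjusted p under 0.05 by edgeR's quasi-likelihood test in either direction, while 5.64% of all genes changed, 3.18% upward and 2.46% downward (834 and 647 genes, but 783 and 799 with upper-quartile scaling). LOC_Os04g54310 alone of these had an unadjusted p under 0.05 by edgeR (0.00364), and by DESeq2 it passed after adjustment.

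LOC_Os04g54300 showed the clearest separation in shoots. It had 209, 414 and 276 counts in the WT shoot libraries, or 7.31, 7.79 and 8.81 CPM, and 423, 339 and 501 counts in the OX6 shoot libraries, or 12.1, 11.9 and 15.7 CPM. The log2 fold change was 0.73 (SE 0.165), a level 1.66-fold higher in OX6, with a 95% interval of 0.41 to 1.06.

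LOC_Os04g54310, its neighbour on the same strand, had 43, 95 and 73 counts in WT shoots, or 1.5, 1.79 and 2.33 CPM, and 100, 95 and 159 in OX6 shoots, or 2.87, 3.34 and 4.97 CPM. Its log2 fold change of 0.99 (SE 0.295) missed the threshold, with an adjusted p of 0.0586 by edgeR. The adjusted p ranged from 0.0219 to 0.325 over the alternatives, so the call depends on the processing.

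LOC_Os04g54240 had 162, 430 and 262 counts in WT shoots, or 5.66, 8.09 and 8.36 CPM, and 303, 304 and 327 in OX6 shoots, or 8.68, 10.7 and 10.2 CPM. The groups did not overlap, but the gap between 8.36 and 8.68 CPM was small beside the spread within WT. Its log2 fold change was 0.41 (SE 0.184), and 0.26 without WT shoot replicate 1, the lowest library of the WT shoots for this gene and for LOC_Os04g54210, LOC_Os04g54300 and LOC_Os04g54310.

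The remaining members were too low or too close in shoots to be told apart. LOC_Os04g54210 had 1.54, 2.75 and 2.30 CPM in WT and 2.44, 2.81 and 2.50 CPM in OX6, with a log2 fold change of 0.22 (SE 0.295, adjusted p = 0.765 by edgeR). LOC_Os04g54230 rested on 9, 21 and 8 counts in WT and 7, 14 and 10 in OX6, and its log2 fold change of 0.027 (SE 0.696, adjusted p = 0.991 by edgeR) had a 95% interval of −1.34 to 1.39, which leaves a 2-fold change in either direction inside the interval. LOC_Os04g54280 had 0 counts in every WT shoot library and 0, 0 and 4 in OX6 shoots, and was not tested.

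Set side by side, the genotype difference had opposite signs in roots and shoots for LOC_Os04g54240, LOC_Os04g54300 and LOC_Os04g54310, without overlap of the groups in either organ. The difference between the organs, the root log2 fold change minus the shoot log2 fold change in 1 model of the 12 libraries, was −2.34 (SE 0.216), −2.63 (SE 0.207) and −2.65 (SE 0.367) for these genes. It was −1.33 (SE 0.298) for LOC_Os04g54210 and −2.35 (SE 0.645) for LOC_Os04g54230. These values share the root libraries that chose the cluster and carry no test. Of the 29042 genes in that model, 1.97% passed adjusted p under 0.05 for this difference by edgeR. Opposite signs without overlap in both organs is another rule, whose share over all genes was not counted.

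**Figure D2:**
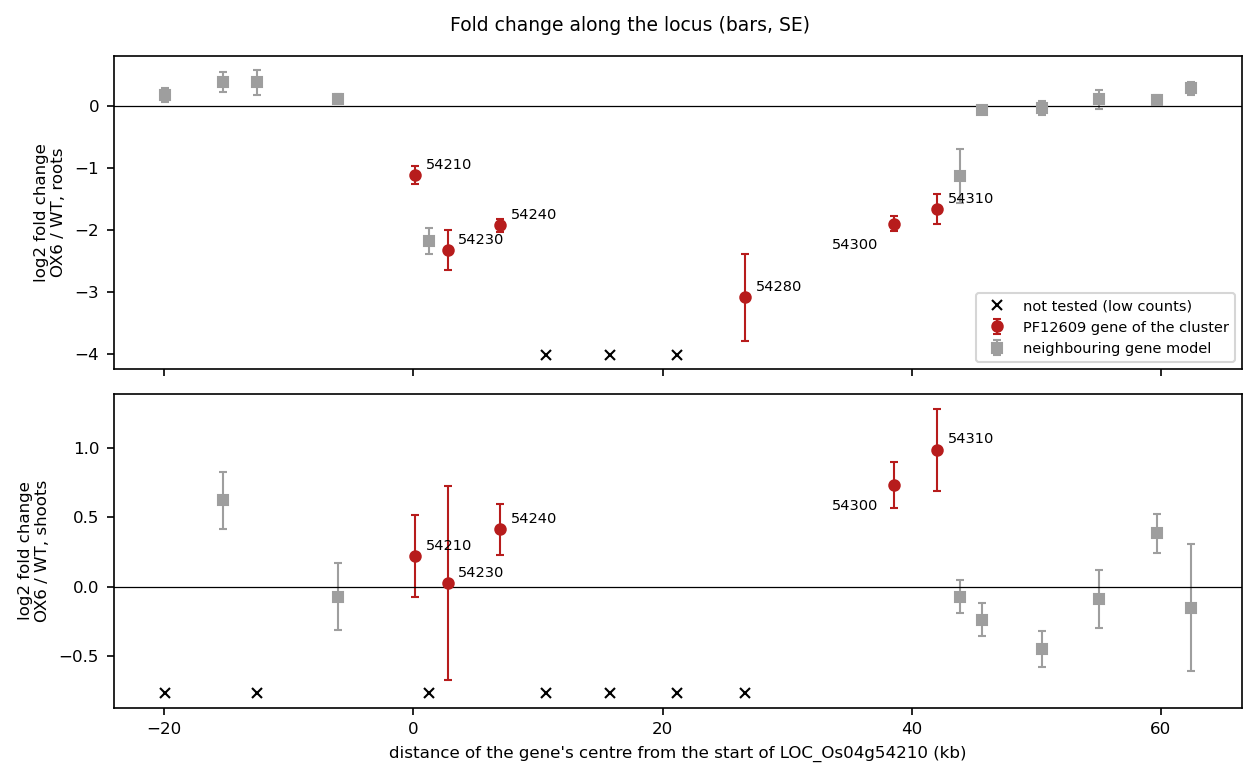
Log2 fold change of OX6 over WT (y axis, bars are SE) in roots (top) and shoots (bottom) against the distance in kb of each gene model from the start of LOC_Os04g54210 (x axis). Red circles are the cluster genes, labelled by the last digits of their identifiers, grey squares are other gene models, and crosses at the bottom edge mark models with too few counts to test. In roots the red circles lie between −1.12 and −3.08 and most grey squares lie near 0.

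The surrounding gene models were counted as well. In a window from 20 kb before the first member to 20 kb after the last, 14 gene models hold no PF12609. Of these, 10 lie outside the span of the cluster. By edgeR 0 of these 10 were called in roots, where all 10 were tested, beside 2.83% of all genes. LOC_Os04g54320, the unnamed model just past the last member, is named after its values were seen: its root log2 fold change of −1.13 (SE 0.432) did not pass (adjusted p = 0.23 by edgeR). In shoots 8 of the 10 were tested and 1 fell, beside 2.46% of all genes. It was the double-strand break repair gene MRE11 (LOC_Os04g54340), at a log2 fold change of −0.45 (SE 0.129, adjusted p = 0.0493 by edgeR, up to 0.211 in the 7 alternatives that lost the call, among them each single library left out).

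Within the span lie 4 models without PF12609, and 3 of them, with transposon-related domains, had too few counts to test in either organ. The other one, LOC_Os04g54220 (32296089 to 32296600, minus strand), has no name or domain in the annotation and sits between LOC_Os04g54210 and LOC_Os04g54230. It had 359, 240 and 318 counts in WT roots, or 8.47, 5.61 and 7.41 CPM, and 63, 51 and 90 in OX6 roots, or 1.57, 1.14 and 2.0 CPM. It fell by 2.18 on the log2 scale (SE 0.207, adjusted p = 1.27e-05 by edgeR), a size within the range of the PF12609 genes beside it. Its adjusted p stayed at or under 0.000596 in all alternatives run. In shoots it had 0, 1 and 0 counts in WT and 2, 2 and 2 in OX6.

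The cluster was then compared between organs. In WT, all 6 genes were higher in root than in shoot without overlap of the libraries, as were 39.4% of the 29042 genes tested. Both organ contrasts share root libraries with the genotype contrast that chose the cluster, so they are given as a description without a test, and nothing is read from the comparison with that share. The differences in WT were 2.87-fold for LOC_Os04g54300 (log2 fold change 1.52, SE 0.145), 4.18-fold for LOC_Os04g54240 (2.06, SE 0.153) and 4.19-fold for LOC_Os04g54210 (2.07, SE 0.211). LOC_Os04g54230 was 5.87-fold higher (2.55, SE 0.436) and LOC_Os04g54310 6.96-fold higher (2.80, SE 0.266). LOC_Os04g54280, with 53 counts in WT roots and 0 in WT shoots, was at least 15.6-fold higher, taking 3 counts over the group as the floor.

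In OX6, 1 member was higher in root without overlap, 1 was lower and 4 overlapped, beside 39.6% and 38.2% of all genes higher and lower without overlap. LOC_Os04g54210 was the higher one, by 1.67-fold (log2 fold change 0.74, SE 0.212). LOC_Os04g54300, singled out for its low OX6 root counts, was the lower one, by 2.16-fold (log2 fold change −1.11, SE 0.148). LOC_Os04g54240 had a log2 fold change of −0.28 (SE 0.153), with a 95% interval of −0.58 to 0.024. LOC_Os04g54310 was at 0.15 (SE 0.255) and LOC_Os04g54230 at 0.21 (SE 0.472), with intervals of −0.35 to 0.65 and −0.72 to 1.13. LOC_Os04g54280 had 6 counts in OX6 roots and 4 in OX6 shoots, a ratio of 1.10 with an exact 95% interval of 0.262 to 5.32.

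**Figure D3:**
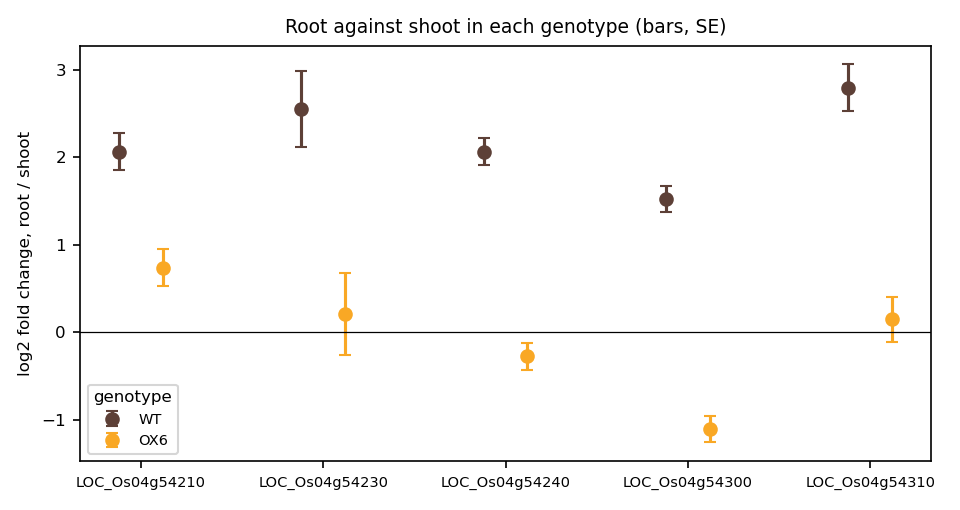
Log2 fold change of root over shoot (y axis, bars are SE) for 5 cluster genes (x axis) in WT (brown) and OX6 (yellow), from 1 model of the 12 libraries. LOC_Os04g54280 is left out because WT shoots held 0 counts. The WT values run from 1.52 to 2.80 and the OX6 values from −1.11 to 0.74.

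Across the 4 groups, WT root was therefore the highest group for every member, and its lowest library lay above all 9 others. The share of all genes with this pattern was not counted, and the WT root libraries took part in choosing the cluster, so nothing is read from it. Below WT root the order varied. For LOC_Os04g54300 the groups stood apart in the order OX6 shoot (13.2 ± 2.11 CPM, SD, n = 3), WT shoot (7.97 ± 0.765 CPM) and OX6 root (6.13 ± 0.732 CPM). For LOC_Os04g54240, OX6 shoot (9.87 ± 1.1 CPM), OX6 root (8.13 ± 0.661 CPM) and WT shoot (7.37 ± 1.49 CPM) followed each other, but OX6 root overlapped both shoot groups. For LOC_Os04g54210 OX6 root (4.31 ± 0.477 CPM) stood above the shoots, and OX6 shoot (2.58 ± 0.202 CPM) and WT shoot (2.19 ± 0.611 CPM) overlapped. LOC_Os04g54310 had overlapping values in OX6 root (4.13 ± 1.06 CPM) and OX6 shoot (3.73 ± 1.11 CPM), both above WT shoot (1.87 ± 0.42 CPM). LOC_Os04g54230 was at 0.322 to 0.379 CPM in all 3 groups, which overlapped.

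Levels of different members were set side by side per length, although the split of reads among them is uncertain. The full length of the gene model was used, without a correction for fragment length. In WT roots, LOC_Os04g54240 (37.1 ± 5.73 CPM per kb), LOC_Os04g54300 (34.8 ± 4.82 CPM per kb) and LOC_Os04g54210 (32.8 ± 5.44 CPM per kb) had overlapping levels. LOC_Os04g54310 was lower, at 20.2 ± 5.47 CPM per kb, its highest library reaching 26.5, just under the lowest of LOC_Os04g54210 at 26.6. LOC_Os04g54230 had 3.36 ± 0.11 CPM per kb and LOC_Os04g54280 0.165 ± 0.0508 CPM per kb. In OX6 roots LOC_Os04g54210 led, at 15.1 ± 1.67 CPM per kb, above LOC_Os04g54240 (9.74 ± 0.792) and LOC_Os04g54300 (9.31 ± 1.11), which overlapped.

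In shoots the lead passed to LOC_Os04g54300. It had 12.1 ± 1.16 CPM per kb in WT shoots, with LOC_Os04g54240 at 8.83 ± 1.78, and 20.1 ± 3.2 CPM per kb in OX6 shoots, with LOC_Os04g54240 at 11.8 ± 1.26. In both shoot groups the lowest library of LOC_Os04g54300 was above the highest of LOC_Os04g54240 in CPM per kb.

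The summed level of the 6 members was 115 to 149 CPM per kb in WT roots, 39.4 to 42.4 in OX6 roots, 26.1 to 35.5 in shoots of WT and 42.1 to 53.1 in shoots of OX6. LOC_Os04g54210 made up 25.7 ± 3.92% of the sum in WT roots and 36.6 ± 2.76% in OX6 roots, without overlap of the libraries. LOC_Os04g54300 made up 27.1 ± 2.37% in WT roots, 22.5 ± 2.23% in OX6 roots, 38.1 ± 4.14% in WT shoots and 42.4 ± 3.26% in OX6 shoots. LOC_Os04g54240 kept between 21.8 and 29.3% in all 12 libraries.

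**Figure D4:**
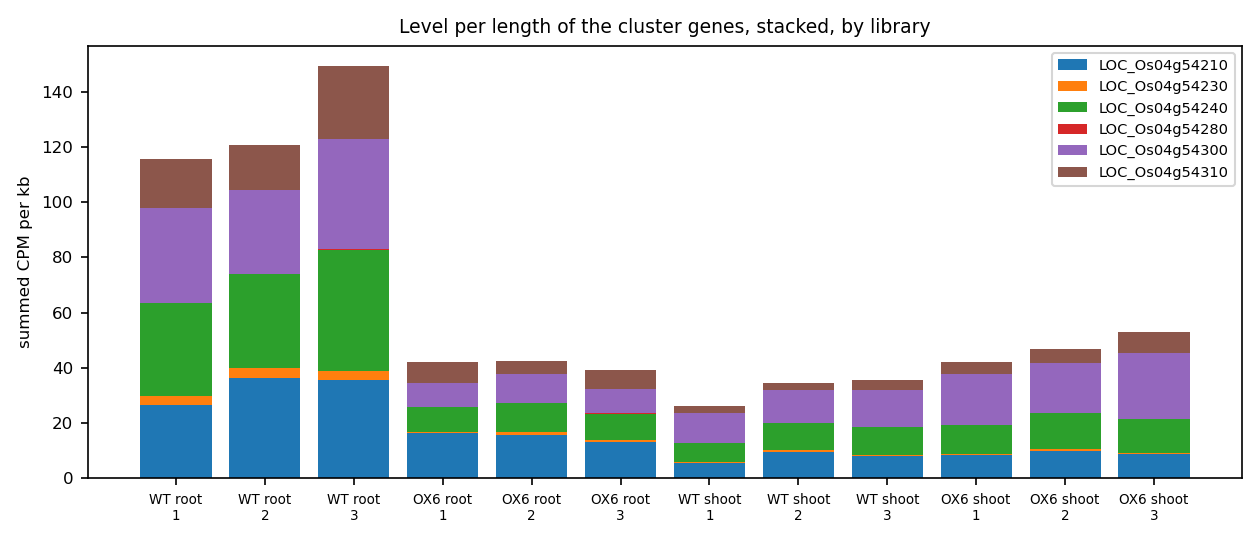
Level per length (CPM per kb, y axis) of the 6 cluster genes, stacked, in each of the 12 libraries (x axis). The WT root bars reach 115 to 149 CPM per kb and no bar of another group exceeds 53.1. LOC_Os04g54280 is too low to be seen.

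The 5 PF12609 genes elsewhere in the genome were not chosen by their values and could be tested in roots. Of these, 3 fell and 0 rose in OX6 roots (1.64% and 1.19% of all genes did so), and the median log2 fold change of the 5 was −0.64. A neighbouring pair on chromosome 8 had the largest falls of the 5. LOC_Os08g08090 (4593671 to 4594175) had 52, 35 and 49 counts in WT roots and 9, 2 and 3 in OX6 roots, and fell by 3.25 on the log2 scale (SE 0.505, adjusted p = 0.00127 by edgeR). It passed the filter on low counts through its WT root libraries alone, so its place among the 5 tested already required a difference. For that reason nothing is read from the count of 3 beside the shares over all genes. LOC_Os08g08100 (4595778 to 4597522) had 94, 49 and 91 counts in WT roots and 18, 17 and 24 in OX6 roots, and fell by 2.0 on the log2 scale (SE 0.321, adjusted p = 0.00179 by edgeR, 0.154 when all 12 libraries shared 1 fit). LOC_Os06g46970, on chromosome 6, had 32.2 ± 4.02 CPM in WT roots and 20.7 ± 2.96 CPM in OX6 roots and fell less (−0.64 on the log2 scale, SE 0.112, adjusted p = 0.00799 by edgeR, 0.0792 when all 12 libraries shared 1 fit).

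Not every gene with the domain was lower in OX6 roots. LOC_Os07g37290, on chromosome 7, had 22.1 ± 2.36 CPM in WT roots and 22.1 ± 1.18 CPM in OX6 roots, a log2 fold change of 0.0020 with a 95% interval of −0.17 to 0.17. Its shoot level of 2.90 ± 0.477 CPM in WT stood at 5.66 ± 0.71 CPM in OX6, a rise of 0.95 on the log2 scale (SE 0.228, adjusted p = 0.0177 by edgeR, 0.118 without OX6 shoot replicate 2 and 0.074 without OX6 shoot replicate 3). It was the 1 gene of the 5 called in shoots, beside 5.64% of all genes. LOC_Os02g06560, on chromosome 2, the remaining one of the 5 and named after its values were seen, had the opposite organ pattern to the cluster, with 2.69 ± 0.544 CPM in WT roots and 45.4 ± 5.16 CPM in WT shoots, and its log2 fold change in OX6 was −0.13 in roots and −0.15 in shoots (adjusted p = 0.868 and 0.547 by edgeR).

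**Figure D5:**
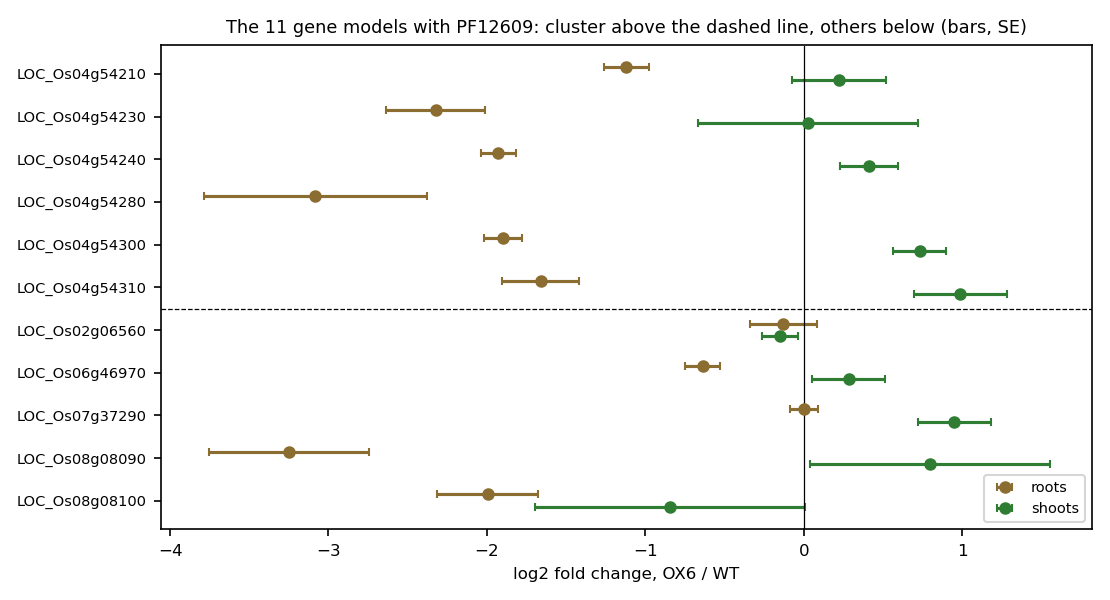
Log2 fold change of OX6 over WT (x axis, bars are SE) in roots (brown) and shoots (green) for the 11 gene models with PF12609 (y axis). The 6 cluster genes stand above the dashed line and the 5 others below it. In roots the 6 cluster genes, chosen by this contrast, lie at −1.12 or lower. Of the 5 others, LOC_Os06g46970, LOC_Os08g08090 and LOC_Os08g08100 lie at −0.64 or lower, and LOC_Os02g06560 and LOC_Os07g37290 near 0. LOC_Os08g08090 passed the filter on low counts through its WT root libraries alone.

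Genes with a pattern like that of the cluster were looked for among 20112 genes with at least 5 CPM in 1 group, by the root mean square difference of log2 CPM over the 12 libraries, each gene centred on its own mean. For LOC_Os04g54240 the nearest outside the cluster were the ethylene-responsive factor ERF057 (LOC_Os03g09170), at a difference of 0.30, the LOB domain-containing protein 41 gene (LOC_Os01g32770), at 0.31, and cytokinin hydroxylase (LOC_Os08g33300), at 0.39. The cluster members LOC_Os04g54300, LOC_Os04g54210 and LOC_Os04g54310 ranked 3, 5 and 7. LOB domain-containing protein 41, a transcription factor whose Arabidopsis counterpart is induced by low oxygen, had 114 ± 11.3 CPM in WT root and 39.5 ± 3.94 CPM in OX6 root, and in shoots 22.0 ± 3.93 CPM for WT against 32.6 ± 5.75 CPM for OX6. For LOC_Os04g54300 the nearest outside the cluster were LOC_Os03g02300, which has no name, at 0.38, a LON substrate-binding domain gene (LOC_Os03g29540), at 0.41, and zinc finger CCCH domain protein 37 (LOC_Os05g45020), at 0.44. LOC_Os04g54240 ranked 2 for it, whereas LOC_Os04g54310 ranked 347 and LOC_Os04g54210 ranked 1561.

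Genes of the processes tied to the family were counted from keyword lists. The jasmonate and wound signalling list took every gene described as a lipoxygenase, whether or not it acts in jasmonate synthesis. Over all genes tested, 1.19% rose and 1.64% fell in roots, and 3.18% rose and 2.46% fell in shoots. In roots, 0 of 63 tested jasmonate and wound signalling genes rose and 0 fell by edgeR (median log2 fold change −0.019), the most abundant being linoleate 9S-lipoxygenase 2 (LOC_Os03g52860), with a WT level of 202 ± 2.83 CPM and an OX6 level of 175 ± 31.2 CPM (adjusted p = 0.459, and 0.00824 with a lower level in OX6 without OX6 root replicate 3). Of 27 proteinase inhibitor genes tested in roots, 1 rose and 0 fell, the riser being cysteine proteinase inhibitor 10 (LOC_Os04g28250), by 1.2-fold (adjusted p = 0.0314 by edgeR, lost in 6 of 13 alternatives, up to 0.262). In shoots, 8 of 61 jasmonate and wound signalling genes rose (5 at adjusted p under 0.01) and 1 fell, beside 3.18% and 2.46% of all genes, the latter a putative 12-oxophytodienoate reductase 13 on chromosome 4 (adjusted p = 2.89e-05 by edgeR), while the rises included the jasmonate repressors TIFY 11b (LOC_Os03g08330) and TIFY 10a (LOC_Os03g28940), by 1.93- and 1.68-fold (adjusted p = 0.00025 and 0.00121 by edgeR). Of 29 proteinase inhibitor genes in shoots, 1 rose and 0 fell, a Bowman-Birk type trypsin inhibitor (LOC_Os03g60840), which went from 130.0 ± 24.3 to 309 ± 24.6 CPM (adjusted p = 7.89e-06 by edgeR).

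In the low oxygen list, 0 of 37 genes rose and 3 fell in roots by edgeR, beside 1.19% and 1.64% of all genes, with a median log2 fold change of −0.14 beside 0.0024. All 3 were plant cysteine oxidases, enzymes that in Arabidopsis use oxygen to mark group VII ethylene response factors for breakdown. The genes LOC_Os12g42860 and LOC_Os05g51470 fell 1.67- and 1.39-fold (adjusted p = 4.38e-06 and 0.0011 by edgeR), and LOC_Os08g37470 fell from 0.485 ± 0.213 to 0.0457 ± 0.0589 CPM (adjusted p = 0.0258 by edgeR, lost in 5 of 12 alternatives, up to 0.152). The last of these passed the filter through its WT root libraries alone, so being tested already required a difference. Nothing is therefore read from the count of 3 beside the shares over all genes. LOC_Os05g51470 lost its call when all 12 libraries shared 1 fit (0.132). In shoots 1 of 31 rose and 1 fell, beside 3.18% and 2.46% of all genes. LOC_Os12g42860 rose 1.42-fold (adjusted p = 0.00886 by edgeR, 0.0938 without OX6 shoot replicate 3), and non-symbiotic hemoglobin 2 (LOC_Os03g12510) fell 2.35-fold (adjusted p = 0.0419 by edgeR, lost without any of 5 of the 6 shoot libraries, up to 0.186).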

How the data were processed

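The authors deposited 1 table of raw read counts per gene model, and the submitters' processing notes name HISAT2 2.0.5 as well as featureCounts 1.5.0-p3. For build, annotation, strand and multi-mapping reads, the settings were not given in the sources used here. Groups and replicate numbers come from the sample titles. The members and lists were chosen with earlier results of these data known. Named genes were all members, called PF12609 genes elsewhere, called neighbours, the 3 genes of nearest pattern, and from each list the called genes of smallest adjusted p (at most 3) or the most abundant one.

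Counts were tested with edgeR 4.0.16 (R 4.3.3; quasi-likelihood, robust, TMM, filterByExpr with a minimum count of 10 and a minimum total count of 15), two-sided, with Benjamini-Hochberg adjustment over all genes tested and a threshold of 0.05. Roots and shoots were fitted apart (6 libraries each), and organ and interaction contrasts in 1 fit of 12. Members carry no p in the root genotype contrast, the organ contrasts or the interaction, which all use the root libraries that chose them. An SE is the log2 fold change over the root of F, and intervals are normal at 95%. Exact intervals of count ratios and the floor of 3 counts cover counting error only. Computations were tested on simulated counts. Alternatives included DESeq2 1.42.0, other scalings and filters, a replicate block and each library left out. Chi-square per gene between replicates was 5.31 to 28.0, so no library was a repeat of another. A RefSeq gene table matched 0 of the PF12609 identifiers, and no sequence is shown.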

Additional observations from a re-analysis of the deposited data

Results flagged for a closer look

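LOC_Os04g54240, LOC_Os04g54300 and LOC_Os04g54310 were lower in every OX6 root library than in any WT root library and higher in every OX6 shoot library than in any WT shoot library, and their root minus shoot differences in log2 fold change were −2.34, −2.63 and −2.65. The difference between organs was not tested for these 3 genes, because the cluster was chosen on the root contrast through LOC_Os04g54240 and LOC_Os04g54300. The share of all genes without overlap in opposite directions in the organs was not counted, so nothing is read from the count of 3.

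For some other genes, named in the text for a call in a genotype contrast, the difference between organs passed adjusted p under 0.05 in edgeR's interaction term. That contrast shares libraries with the interaction term, so passing is partly built in and nothing is read from it. Among PF12609 genes elsewhere the difference was −0.94 for LOC_Os07g37290 (adjusted p = 0.0153) and −4.05 for LOC_Os08g08090 (adjusted p = 0.0486). The first was lost without WT root replicate 2 (0.0548), WT root replicate 3 (0.0529) or OX6 root replicate 3 (0.0509). The second was lost under 2 other scalings (0.052 and 0.0502) and in most fits with 1 library left out (up to 0.13). LOC_Os08g08090 also passed the filter of the root fit through its WT libraries alone. The unnamed LOC_Os04g54220 inside the cluster had −4.65 (adjusted p = 0.0343), with 1 count over the WT shoot libraries, and lost this call in 8 fits with 1 library left out (up to 0.101). In the lists they were −1.27 for TIFY 11b, −1.01 for TIFY 10a and −1.23 for the Bowman-Birk type trypsin inhibitor. For the plant cysteine oxidase genes they were −1.26 (LOC_Os12g42860) and −6.24 (LOC_Os08g37470). LOC_Os08g37470 had under 1 CPM in WT roots and passed the filter of the root fit through its WT libraries alone. It lost the call in 6 fits with 1 library left out (up to 0.126).

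The genes of nearest pattern were chosen for a pattern that this difference is part of, so theirs is given without a test: −2.53 for ERF057, −2.09 for LOB domain-containing protein 41, −1.43 for cytokinin hydroxylase, −2.88 for LOC_Os03g02300, −1.70 for LOC_Os03g29540 and −2.0 for LOC_Os05g45020.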

How the results depend on the processing

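In every alternative that gave a value, all 6 members stayed lower in OX6 roots. The cluster was chosen on that contrast and the root groups did not overlap, so leaving out 1 library could hardly reverse the direction. In every alternative the 5 members other than LOC_Os04g54280, which was left out of that check, stayed higher in WT root than in WT shoot. LOC_Os04g54300 stayed higher in OX6 shoots and lower in OX6 root than in OX6 shoot. LOC_Os04g54310 in shoots passed the threshold with no filter on low counts (log2 fold change 0.99, adjusted p = 0.0219), with DESeq2 (0.99, 0.0315) and with all 12 libraries in 1 fit (0.99, 0.0329), and ranged from 0.72 to 1.17 with single libraries left out, of which the fit without WT shoot replicate 3 passed (1.17, 0.0321). Leaving out 1 library gave −2.55 to −2.03 for LOC_Os04g54230 and −3.45 to −2.57 for LOC_Os04g54280 in roots, and −0.34 to 0.30 for LOC_Os04g54230 in shoots. For root over shoot it gave 2.39 to 2.75 for LOC_Os04g54230 in WT and, in OX6, −0.052 to 0.58 for LOC_Os04g54230 and −0.0049 to 0.42 for LOC_Os04g54310. Outside the cluster it gave, in roots, −0.30 to 0.0073 for LOC_Os02g06560 and −0.084 to 0.058 for LOC_Os07g37290. Genes called over the whole table numbered 753 in roots, 293 when all 12 libraries shared 1 fit and 407 (without WT root replicate 3) to 773 with single libraries left out. In shoots they numbered 1481, 2459 in 1 fit of 12, and 708 (without OX6 shoot replicate 3) to 1877. For the interaction they were 572 (201 higher, 371 lower), 590 with upper-quartile scaling (278 and 312), 1207 with DESeq2 (601 and 606), 701 without WT shoot replicate 1 (375 and 326) and 665 without WT shoot replicate 3 (353 and 312). The cause was not tested. Upper-quartile scaling moved root over shoot in OX6 by a median of 0.15 over all genes, without changing a member's direction. Counts under about 10 limit LOC_Os04g54230 and LOC_Os04g54280.

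Same-numbered libraries did not deviate together (correlations of −0.113 to 0.101 in roots and −0.0394 to 0.0549 in shoots), so replicate numbers were not taken as pairs. A fit with the replicate block called 796 genes in roots, 1454 in shoots and 471 for the interaction, and gave LOC_Os04g54310 in shoots 0.97 (adjusted p = 0.0474).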
